A study of Homo sapiens with 12 samples.

Results

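The 36 genes described here carry the amino acid response and the unfolded protein response, listed by name as ATF4-pathway and endoplasmic reticulum (ER) stress genes. All 36 were found by symbol among the 55782 gene symbols of the count table. The list was chosen with earlier results of these data known. A low-count filter kept 15535 genes, and 35 of the 36 passed it. The member left out was ALDH1L2, a mitochondrial folate enzyme with 2 to 10 counts per library.

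These genes work in connected branches. When amino acids run short, or when the ER sensor kinase PERK (EIF2AK3) detects unfolded protein, the initiation factor eIF2 is phosphorylated, general translation slows and translation of ATF4 mRNA rises. ATF4 then drives genes for amino acid synthesis and uptake, and feedback genes such as DDIT3, TRIB3 and PPP1R15A. The other ER sensors are IRE1 (ERN1), which splices XBP1 mRNA, and ATF6, which is cut to release a transcription factor. Both induce chaperones and the degradation machinery of the ER. Activated T cells and antibody-secreting B cells are known to use these programmes when they grow and secrete. ATF4 activity, PERK activity and XBP1 splicing are set after transcription, so counts per gene do not read them.

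RNA was sequenced from a co-culture of 2 human lines. The first was Jurkat, a T cell leukaemia line labelled as carrying LAG3 and PD1, which are inhibitory receptors of T cells. The second was Raji, a Burkitt lymphoma B cell line labelled as carrying PDL1, a ligand of PD1. Jurkat cells were grown under puromycin at 0.2 µg/ml with geneticin at 500 µg/ml, and Raji cells under puromycin at 0.25 µg/ml. In every group the Raji cells were loaded with SED, a staphylococcal superantigen, at 100 ng/ml, equal numbers of both lines were mixed, and the co-culture lasted 24 h. The 4 arms were isotype with isotype, anti-LAG3 with isotype, anti-PD1 with isotype, and anti-PD1 with anti-LAG3, called the combination. Both antibodies of an arm were given at the same dose, 1, 0.1 or 0.01 µg/ml, and cells of several wells were pooled into 1 library per condition. No condition was repeated. The libraries of an arm therefore differ in dose, and p-values measure only how far these 12 libraries spread, which can be technical. RNA of both lines was read together, so for every value below fewer cells of a line and less RNA per cell cannot be told apart.

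RefSeq promoters (GRCh38.p14, 250 bases before to 50 after each start) were matched for 32 of the 36 genes, and 4 motifs were searched on both strands. The sites are shown because they are the elements through which ATF6 and ATF4 are known to act, and they were found in only some of these genes. The ER stress response element, made of CCAAT and CCACG with 9 unspecified bases between them and known as a site for ATF6 with NF-Y, lay in the promoters of CALR, CANX, HSP90B1, HSPA5, PDIA6 and XBP1. It was present in 0.0769% of 35116 promoters of the same length, and in 0.0916% of their 27305 genes. Element II, made of ATTGG and CCACG with 1 unspecified base between them, lay in HERPUD1 and SDF2L1. It was present in 0.0541% of all promoters and 0.0696% of all their genes. The C/EBP-ATF response element TGATGNAAN, through which ATF4 acts with C/EBP partners, lay in ASNS, CEBPG, CHAC1, HERPUD1, SLC3A2 and SLC7A1. It was present in 3.61% of all promoters and 4.45% of all their genes. The unfolded protein response element TGACGTGG lay in none of the 32, in 0.729% of all promoters and in 0.927% of all their genes. Sites before the start, except that of CEBPG, are printed 5′ to 3′ on the strand of the gene, with the motif in capitals. In HSP90B1 both sites are shown.
HSPA5 (chr9:125241376-125241424, minus strand): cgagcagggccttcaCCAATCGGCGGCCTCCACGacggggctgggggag
PDIA6 (chr2:10812838-10812886, minus strand): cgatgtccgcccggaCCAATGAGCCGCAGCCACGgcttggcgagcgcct
XBP1 (chr22:28800588-28800636, minus strand): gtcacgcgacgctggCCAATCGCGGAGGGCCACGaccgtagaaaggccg
HSP90B1, forward (chr12:103930201-103930249, plus strand): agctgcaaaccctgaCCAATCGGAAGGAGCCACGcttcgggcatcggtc
HSP90B1, reverse (chr12:103930306-103930354, plus strand): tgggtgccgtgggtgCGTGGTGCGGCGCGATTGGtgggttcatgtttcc
CALR, reverse (chr19:12938369-12938417, plus strand): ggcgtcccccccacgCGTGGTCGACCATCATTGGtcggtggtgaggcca
CANX (chr5:179698773-179698801, plus strand): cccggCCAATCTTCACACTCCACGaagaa
SDF2L1, element II, reverse (chr22:21642099-21642139, plus strand): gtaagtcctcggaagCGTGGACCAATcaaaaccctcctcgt
HERPUD1, element II (chr16:56932010-56932050, plus strand): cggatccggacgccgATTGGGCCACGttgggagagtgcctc
HERPUD1, C/EBP-ATF, reverse (chr16:56931950-56931988, plus strand): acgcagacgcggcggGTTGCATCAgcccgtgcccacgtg
ASNS, C/EBP-ATF (chr7:97872453-97872491, minus strand): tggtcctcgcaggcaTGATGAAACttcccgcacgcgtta
CHAC1, C/EBP-ATF, reverse (chr15:40953246-40953284, plus strand): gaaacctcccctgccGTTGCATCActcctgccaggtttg
These letters describe the DNA only, and the files hold no binding data.

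Libraries held 23593973 to 36581754 counts, the most in the isotype library at 1 µg/ml. Of 24 Jurkat markers 23 were tested, and CD3D, CD3E and LCK lay between 105 and 355 CPM (a gene's count relative to its library's total, with library sizes scaled by TMM factors). LAT at 0.300 to 1.12 CPM and PTCRA at 0.0373 to 0.36 CPM were near 0. All 26 Raji markers were tested, with MS4A1, CD79A and PAX5 between 323 and 524 CPM. Summed Jurkat markers ran from 1650.2 to 1785 CPM under isotype, 1841 to 1914 under anti-LAG3, 1709 to 1852 under anti-PD1 and 1712 to 1851 in the combination. Summed Raji markers ran from 9097 to 10341, 9114 to 9312, 9388 to 9720.0 and 9642 to 10058 CPM in the same order. Markers of secreting B cells summed to 743 to 841 CPM over all libraries, with JCHAIN at 414 to 498 CPM and SDC1 at 0.171 to 0.518 CPM. Libraries also differed in how log2 level followed the GC content of transcripts: by 0.02 to 0.06 log2 per 10 percentage points of GC under anti-LAG3, -0.00 to 0.07 under anti-PD1, -0.04 to -0.02 in the combination and -0.04 to -0.03 under isotype, relative to the mean library.

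The co-culture expressed the ER folding machinery at high levels. Per length, CALR, a lectin chaperone, was the most abundant of the 36, at a mean of 504 reads per kilobase of gene, scaled like CPM (RPKM), followed by the Hsp70 chaperone HSPA5 at 303 RPKM and the membrane lectin CANX at 163 RPKM. The leucine transporter SLC7A5 at 154 RPKM and ATF4 at 125 RPKM came next. The ER sensors were far lower, with ATF6 at 10.2, EIF2AK3 at 8.31 and ERN1 at 1.81 RPKM. DDIT3 (CHOP), a pro-death factor of prolonged stress, stood at 5.24 RPKM, and CHAC1, which degrades glutathione, at 3.14 RPKM. Among the 35 tested genes the ratio of the highest to the lowest library ran from 1.08 for CALR to 1.48 for DDIT4, so differences among these genes were small.

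**Figure D1:**
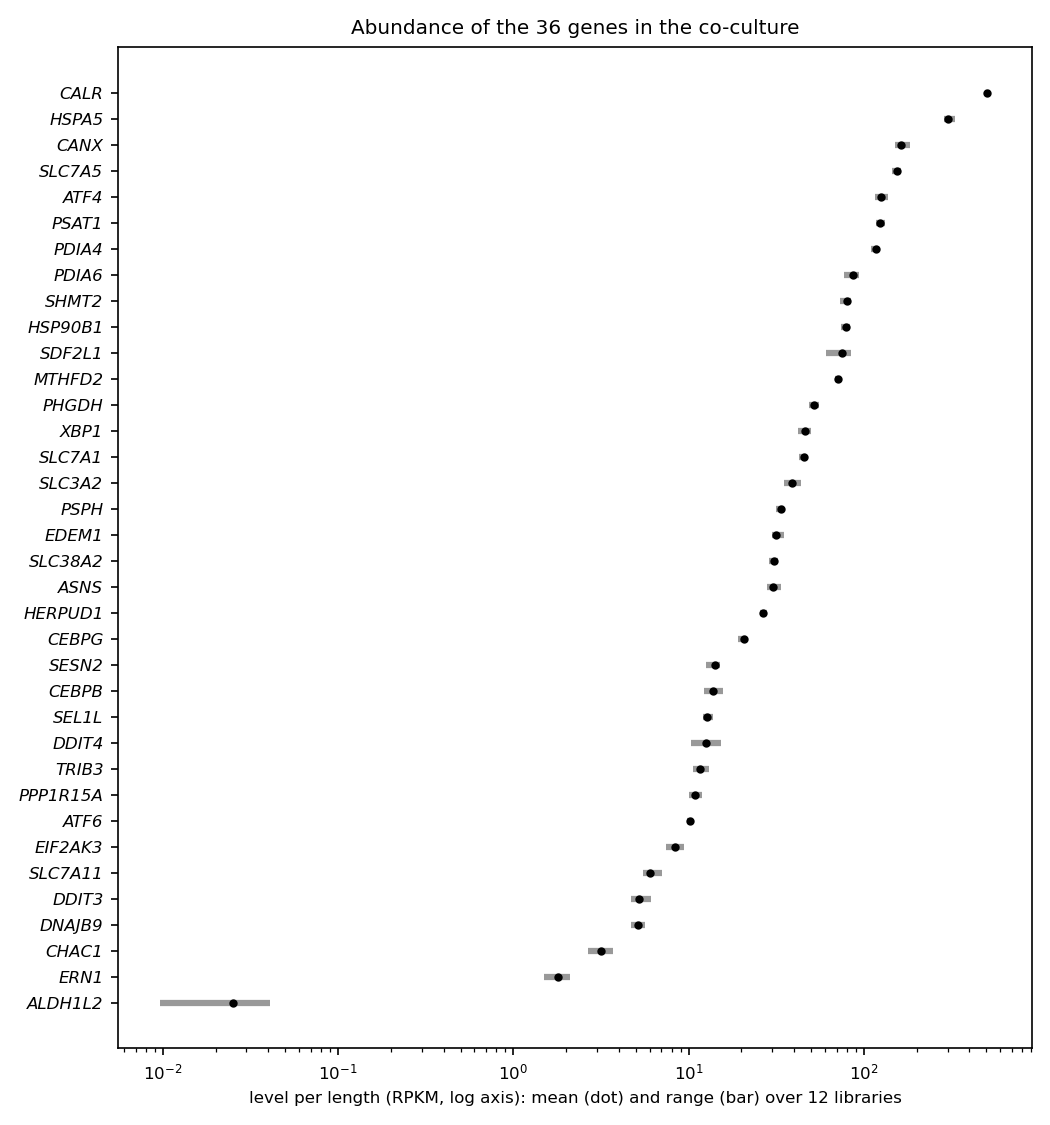
Level per length (RPKM, log axis) of the 36 genes, with the mean of the 12 libraries as a dot and their range as a bar. ER chaperones and SLC7A5 lead, the sensors EIF2AK3 and ERN1 lie near the bottom, and ALDH1L2 is set apart at 0.0250 RPKM.

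Each antibody was compared with isotype over the 3 libraries of an arm, with dose as a term. Adjusted p-values below come from the quasi-likelihood F-test of edgeR, adjusted by Benjamini-Hochberg over all 15535 genes, unless DESeq2 or the authors' deposited table is named. A value after ± is a standard error of a log2 difference. A change was called at an adjusted p under 0.05. Shares of all genes called are those of edgeR, except where the authors' deposited tables are named. Under anti-LAG3, 4 of the 35 tested genes rose (DDIT4, PHGDH, SDF2L1, SHMT2) and 1 fell (SLC7A11), against 10.0% of all genes called (4.88% up, 5.16% down). Under anti-PD1, 5 rose (DDIT4, TRIB3, SLC3A2, PHGDH, SDF2L1) and 2 fell (SLC7A11, EIF2AK3), against 3.82% of all genes (2.09% up, 1.73% down). In the combination none of the 35 was called, against 0.00644% of all genes. There 1 of the 35 had an unadjusted p under 0.05, against 6.68% of all genes, and DESeq2 called 1 of the 35. Over all 15535 genes DESeq2 called 17 higher and 1 lower in that comparison. The median log2 change of the 35 was 0.01 under anti-LAG3, 0.02 under anti-PD1 and 0.01 in the combination, beside -0.00, -0.01 and -0.00 over all genes. These comparisons share the isotype libraries, and so do the calls that recur between them. Without any test, all 3 anti-LAG3 libraries lay above all 3 isotype libraries for 10 of the 35 (14.7% of all genes) and below them for 6 (14.2%). For anti-PD1 this was so for 9 (11.3%) and 4 (11.0%), and for the combination for 2, DDIT4 and PPP1R15A (4.29%), and 0 (4.20%). The combination lay above anti-LAG3 for 4 and below it for 9 of the 35 (12.6% of all genes each way). The counts of 10 and 9 above isotype and of 9 below anti-LAG3 are higher than those shares would give, which was not tested. The other counts are near the share among all genes.

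**Figure D2:**
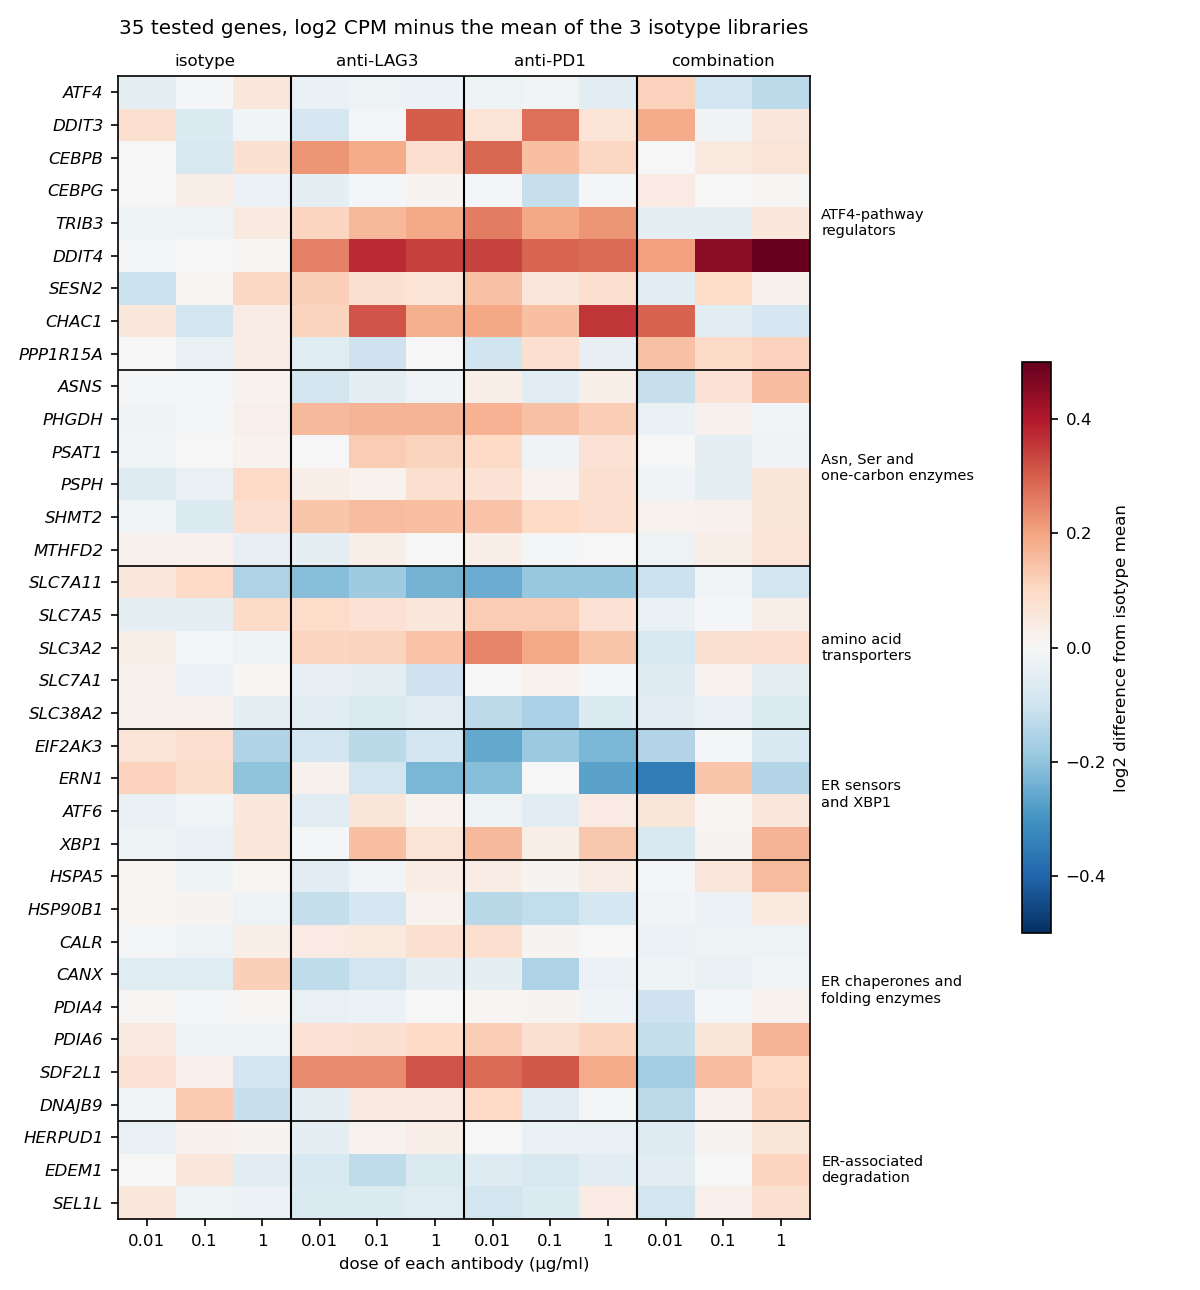
Log2 CPM of the 35 tested genes (rows, by role) in the 12 libraries (columns, by arm and dose in µg/ml) minus the mean of the 3 isotype libraries, with red above and blue below. DDIT4 is above the isotype mean in all 9 antibody libraries, and the PHGDH, SHMT2 and SDF2L1 rises of the single antibodies are paler or absent in the combination.

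The calls against isotype ran with GC content, the share of G and C in a gene's longest GENCODE 29 transcript. The 6 genes that rose in either single arm had 52.3% (PHGDH), 57.0% (SHMT2), 57.4% (SLC3A2), 58.1% (DDIT4), 60.9% (TRIB3) and 65.5% GC (SDF2L1). The genes that fell had 35.4% (SLC7A11) and 44.4% GC (EIF2AK3). With gene length and GC as offsets, over the 13686 genes with a GC value, the calls under anti-LAG3 went from 5 to 2 (DDIT4 and PHGDH) and under anti-PD1 from 7 to 0. Over all genes the calls went from 1560 to 718 under anti-LAG3 and from 594 to 21 under anti-PD1. The log2 change of SLC7A11 under anti-LAG3 went from -0.21 to -0.08 and that of SDF2L1 from 0.26 to 0.15. PHGDH moved least, from 0.17 to 0.15.

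**Figure D3:**
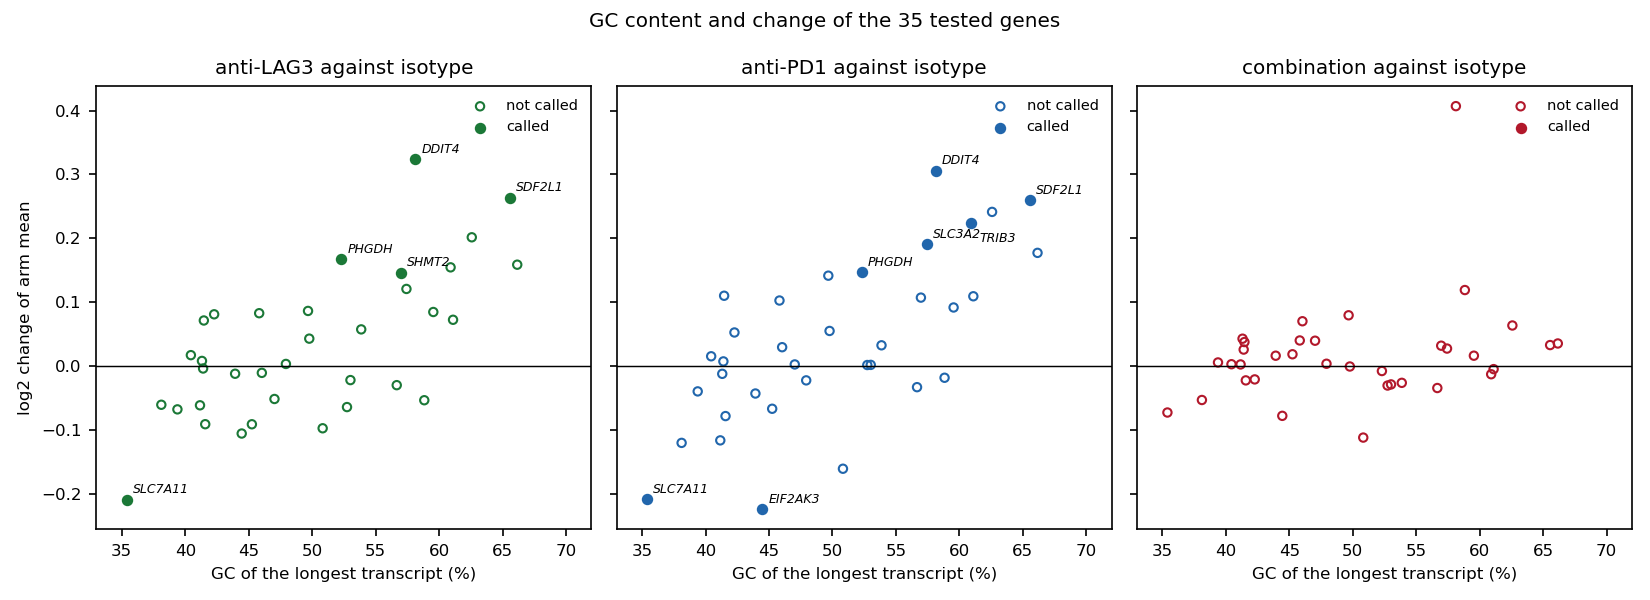
GC content of the longest transcript (%) and log2 change of the arm mean against isotype for the 35 tested genes, with called genes filled and named. Under anti-LAG3 and anti-PD1 the genes called higher lie at 52.3% GC or more and those called lower at 44.4% or less, while in the combination no gene is called and the highest point is DDIT4.

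**Figure D4:**
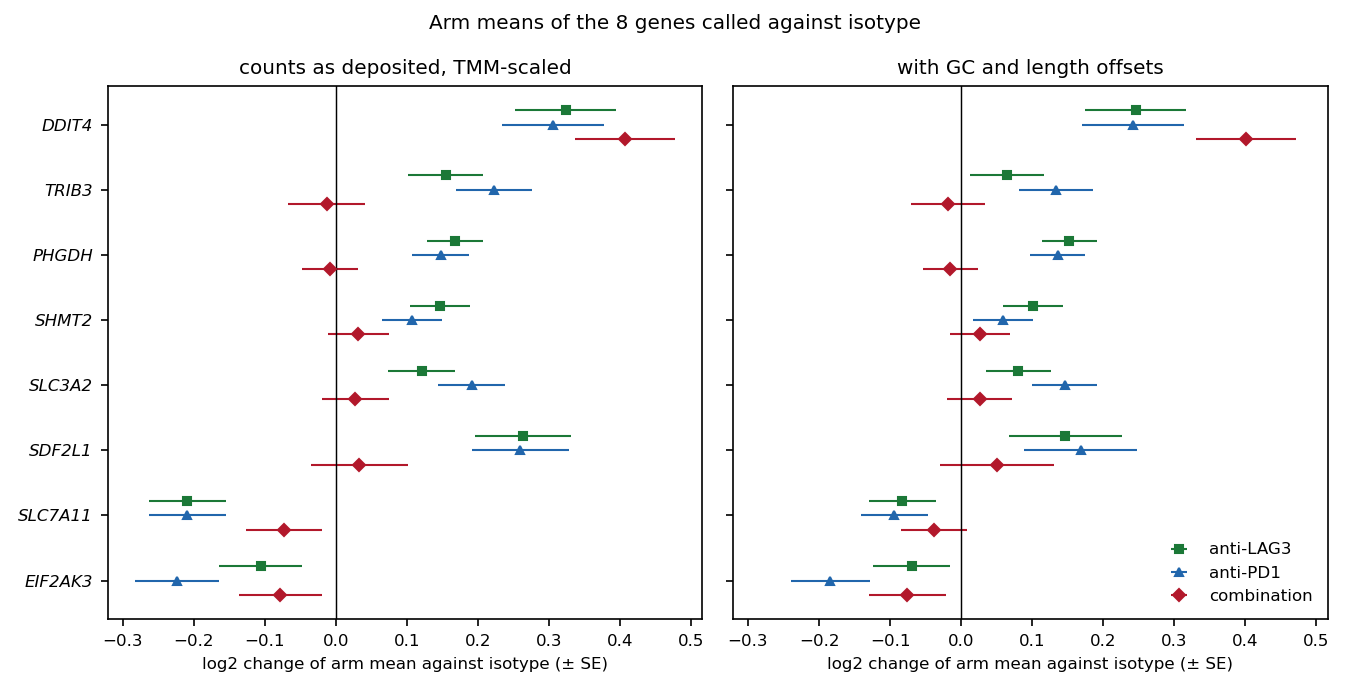
Log2 change of arm means against isotype (± SE) for the 8 genes called in either single-antibody arm, without offsets (left) and with GC and length offsets (right). DDIT4 stays highest in all 3 arms, and SLC7A11 moves towards 0 on the right.

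Among the ATF4-pathway regulators, DDIT4 stood out. DDIT4 (REDD1, chr10:72273920-72276036, plus strand, GENCODE 29 on GRCh38) inhibits mTORC1 and is induced by ATF4, hypoxia and glucocorticoids. Its level was 21.3, 21.5 and 21.5 CPM under isotype at 0.01, 0.1 and 1 µg/ml. Under anti-LAG3 it was 25.5, 27.8 and 27.1 CPM, under anti-PD1 27.1, 26.2 and 26.1 CPM, and in the combination 24.7, 29.3 and 31.5 CPM at the same doses. All 9 antibody libraries lay above all 3 isotype libraries, and the isotype libraries were nearly equal. The arm mean rose by 0.32 ± 0.07 log2 under anti-LAG3 (adjusted p = 0.00614) and by 0.31 ± 0.07 under anti-PD1 (adjusted p = 0.0211). In the combination the difference was 0.41 ± 0.07, with an adjusted p of 0.0575 that missed the threshold. By DESeq2 the combination's adjusted p was 0.00590, and without its 0.01 µg/ml library the difference was 0.50 with an adjusted p of 0.000176 in edgeR. With GC and length offsets the anti-LAG3 rise was 0.25 (adjusted p = 0.0448), while the anti-PD1 difference was 0.24 (adjusted p = 0.123). Without the 0.1 µg/ml isotype library the anti-LAG3 value was 0.31 (adjusted p = 0.0523) and the anti-PD1 value 0.29 (adjusted p = 0.148). The anti-PD1 call was also lost without its own library at 0.1 µg/ml (0.33, adjusted p = 0.0578) or at 0.01 µg/ml (0.24, adjusted p = 0.236). The dose slope of DDIT4 in the combination exceeded that of isotype by 0.17 ± 0.07 log2 per 10-fold dose, which was not called (adjusted p = 0.213).

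In the authors' deposited tables, which set each antibody library against all 3 isotype libraries, DDIT4 at 1 µg/ml of the combination was the only one of these genes with an adjusted p under 0.05. The authors' log2 fold change there was 0.56 with an adjusted p of 0.00602, where that table called 1.67% of its genes. The tables for the combination at 0.01 and 0.1 µg/ml called 0% and 0.179% of their genes, those for anti-LAG3 at 0.01, 0.1 and 1 µg/ml 0.0666%, 1.24% and 1.43%, and those for anti-PD1 0.549%, 0% and 0.366%. At the other 8 conditions the authors' deposited tables gave DDIT4 log2 fold changes of 0.21 to 0.45, and listed no adjusted p at 3 of them. All 9 of these fold changes are positive, and the 9 tables share the same isotype libraries.

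TRIB3, a pseudokinase that feeds back on ATF4 and AKT, followed the single antibodies but not the combination. It measured 36.9, 37.0 and 38.7 CPM under isotype at 0.01, 0.1 and 1 µg/ml, 40.5, 42.1 and 42.8 under anti-LAG3, 44.8, 43.0 and 43.7 under anti-PD1, and 36.3, 36.3 and 39.0 in the combination. Both single-antibody arms lay above the isotype range, and the combination overlapped it. TRIB3 rose by 0.22 ± 0.05 under anti-PD1 (adjusted p = 0.0231), and the anti-LAG3 difference of 0.15 ± 0.05 was not called (adjusted p = 0.0668). The anti-PD1 value with offsets was 0.13 (adjusted p = 0.247). Leaving out the anti-PD1 library at 0.1 or 0.01 µg/ml, or the isotype library at 0.1 or 0.01 µg/ml, gave 0.19 to 0.23 with adjusted p of 0.0701 to 0.223.

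ATF4 itself (chr22:39519695-39522685, plus strand), the central transcription factor, did not differ between arm means but changed with the dose of the combination. It measured 309.6, 319 and 333 CPM under isotype at 0.01, 0.1 and 1 µg/ml, 313, 315 and 314 under anti-LAG3, and 314, 317 and 308 under anti-PD1. In the combination it was 347, 299.9 and 293 CPM. The combination thus held both the highest and the lowest of the 12 libraries for ATF4, at its lowest and highest dose. Its slope minus the isotype slope was -0.17 ± 0.04 log2 per 10-fold dose (adjusted p = 0.0205). The isotype series went the other way, so part of this difference comes from the isotype libraries. Without the combination library at 0.01 µg/ml the value was -0.09 (adjusted p = 0.908), and without the isotype library at 1 or 0.01 µg/ml it was -0.16 (adjusted p = 0.789) or -0.18 (adjusted p = 0.209). Without the combination library at 1 µg/ml it was -0.26 (adjusted p = 0.0546). The genes whose log2 CPM followed ATF4 most closely over the 12 libraries were DAZAP1, SRPK2, ANP32B, AHSA1 and C9, with Pearson's r of 0.887 to 0.917 and Spearman's rho of 0.741 to 0.888, given as a description of libraries that share arms and depth. Without the 2 libraries farthest from the ATF4 median, r was 0.699 to 0.852.

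DDIT3 stayed low in every arm. It measured 6.66, 6.00 and 6.23 CPM under isotype at 0.01, 0.1 and 1 µg/ml, 5.92, 6.27 and 7.77 under anti-LAG3, 6.60, 7.63 and 6.60 under anti-PD1 and 7.17, 6.21 and 6.54 in the combination. All arms overlapped. CHAC1 lay between 5.52 and 7.59 CPM and CEBPB, a partner of ATF4, between 23.8 and 30.8 CPM. For both, the 3 libraries of each single antibody lay above the 3 isotype libraries without a call. The eIF2 phosphatase subunit PPP1R15A measured 35.6 to 37.0 CPM in the combination, above 31.0 to 33.4 under anti-LAG3 and 32.5 to 34.2 under isotype. The partner CEBPG (84.4 to 94.0 CPM) and SESN2, which senses leucine (43.4 to 51.8 CPM), were called in no comparison.

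Of the 6 tested enzymes, 2 (PHGDH and SHMT2) rose under anti-LAG3 and 1 (PHGDH) under anti-PD1. PHGDH (chr1:119648411-119744226, plus strand) catalyses the entry step of serine synthesis. It measured 275, 276 and 283 CPM under isotype at 0.01, 0.1 and 1 µg/ml, and 272, 282 and 275 in the combination. Under anti-LAG3 it was 311, 313 and 313 CPM, and under anti-PD1 314, 308 and 303. The 6 libraries with a single antibody all lay above the 6 others. PHGDH rose by 0.17 ± 0.04 under anti-LAG3 (adjusted p = 0.00944) and by 0.15 ± 0.04 under anti-PD1 (adjusted p = 0.0388). In the combination it was lower than under anti-LAG3 by 0.18 ± 0.04 (a log2 difference of -0.18, adjusted p = 0.0129), the only one of the 35 tested genes called in that comparison, against 5.75% of all genes. Against anti-PD1 the combination differed by -0.16 ± 0.04, which was not called (adjusted p = 0.0745). PHGDH was called with offsets under anti-LAG3 (0.15, adjusted p = 0.0240) and in the combination against anti-LAG3 (-0.17, adjusted p = 0.0232), but not under anti-PD1 (0.14, adjusted p = 0.111). Leaving out single libraries kept the anti-LAG3 value between 0.16 and 0.19, and the adjusted p reached 0.0836 without the 0.1 µg/ml isotype library, 0.0570 without the 1 µg/ml anti-LAG3 library and 0.0501 without the 0.01 µg/ml isotype library. The anti-PD1 value ran from 0.13 to 0.18, with 6 of 12 such fits over the threshold, up to an adjusted p of 0.256 without the 0.01 µg/ml anti-PD1 library. The combination against anti-LAG3 was not called without the anti-LAG3 library at 1 µg/ml (-0.17, adjusted p = 0.0811) or 0.1 µg/ml (-0.18, adjusted p = 0.0687), or the combination library at 0.1 µg/ml (-0.19, adjusted p = 0.0715).

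SHMT2, the mitochondrial serine hydroxymethyltransferase, measured 365, 351 and 391 CPM under isotype at 0.01, 0.1 and 1 µg/ml. It was 406, 410.3 and 409 CPM under anti-LAG3, 407, 395 and 390.3 under anti-PD1 and 373, 375 and 384 in the combination. Anti-LAG3 lay above the isotype range, and anti-PD1 overlapped it through the isotype library at 1 µg/ml. SHMT2 rose by 0.15 ± 0.04 under anti-LAG3 (adjusted p = 0.0310), and with offsets the value was 0.10 (adjusted p = 0.176). The call held in 6 of 12 fits that left out 1 library, and the value was lowest, 0.11 (adjusted p = 0.245), without the 0.1 µg/ml isotype library. The other tested enzymes were called in no comparison, with PSAT1 at 257 to 289 CPM, PSPH at 86.8 to 97.3 CPM and the mitochondrial folate enzyme MTHFD2 at 334 to 361 CPM. PSPH has a pseudogene copy whose reads the counting may have split, so its level is uncertain.

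ASNS, which makes asparagine and carries the C/EBP-ATF element shown above, measured 134, 134 and 136 CPM under isotype at 0.01, 0.1 and 1 µg/ml. It was 126, 130.2 and 133 CPM under anti-LAG3, 138, 129 and 137 under anti-PD1, and 124, 142 and 149.9 in the combination. The lowest and the highest of the 12 libraries were the combination at its lowest and highest dose. The slope of ASNS in the combination exceeded that of isotype by 0.12 ± 0.05 log2 per 10-fold dose and was not called (adjusted p = 0.163).

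**Figure D5:**
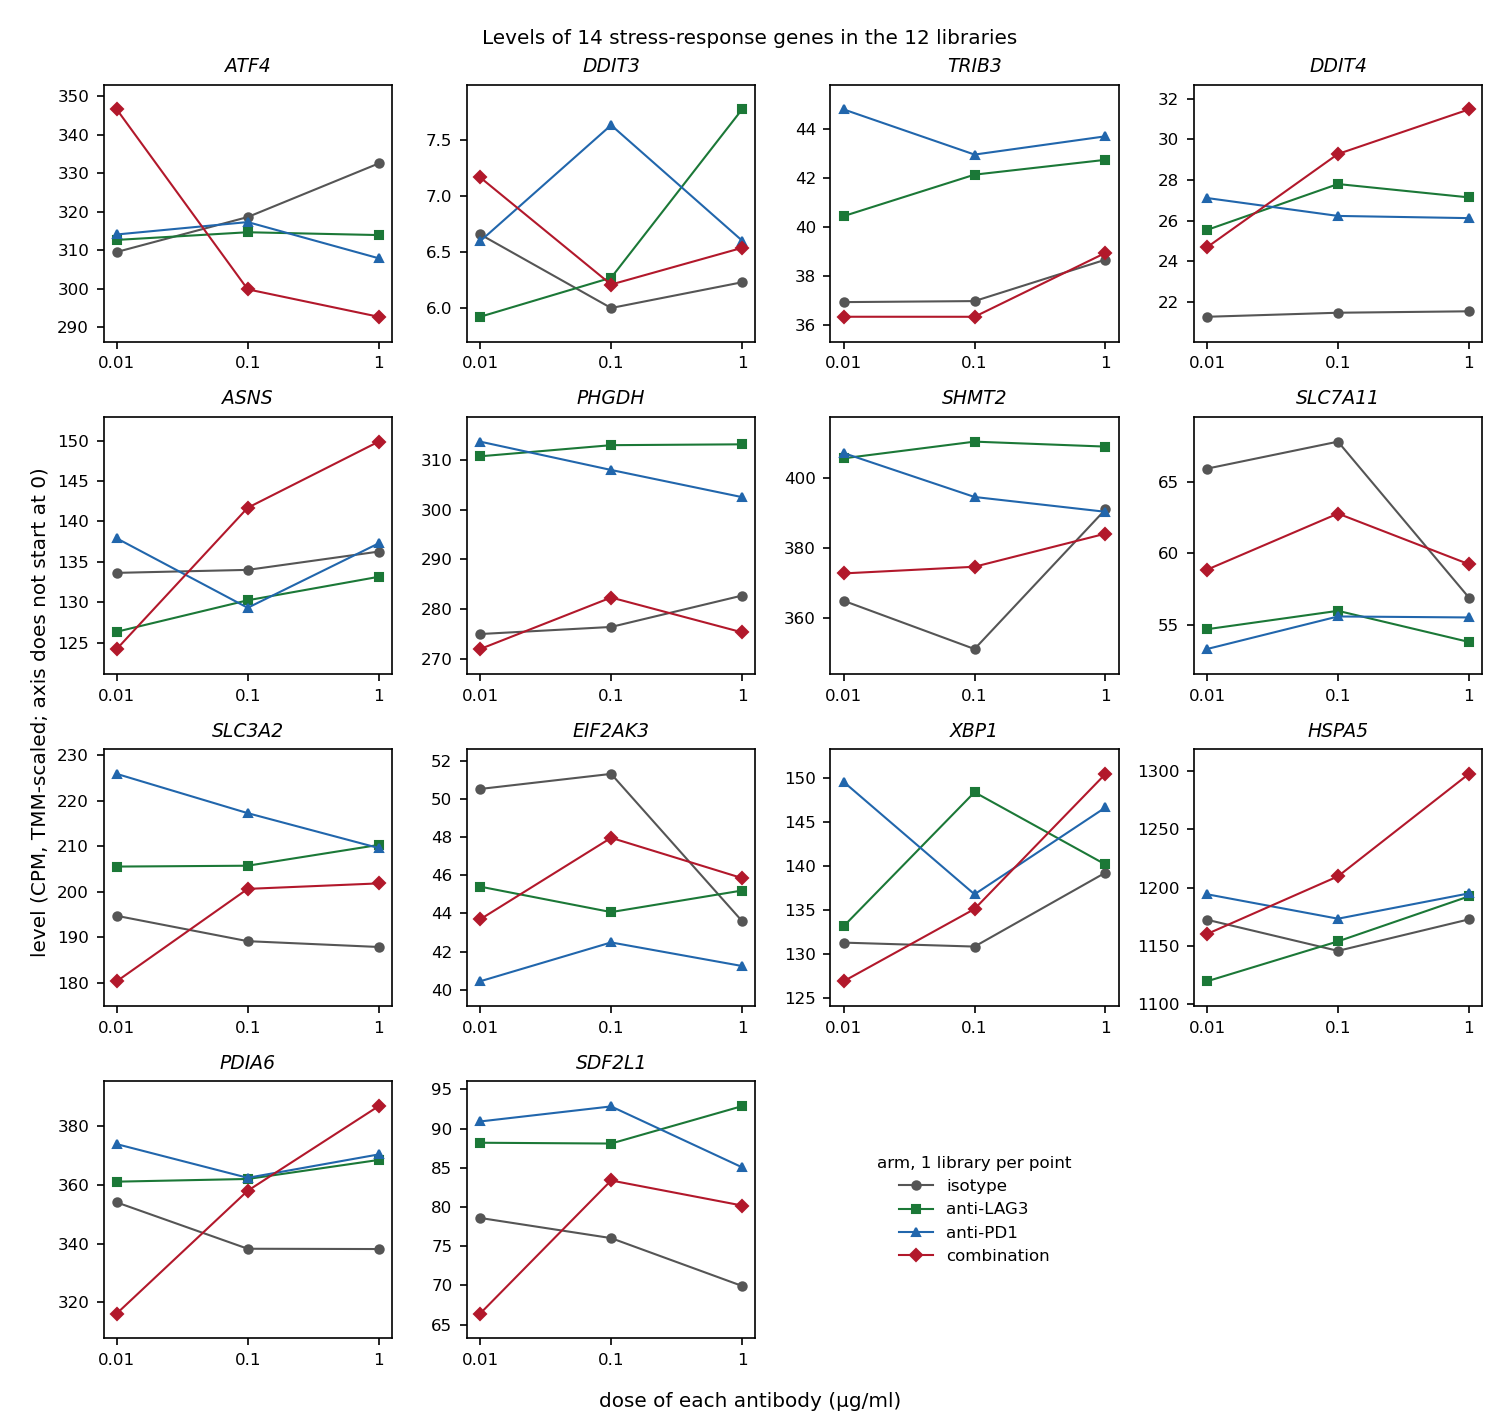
Level (CPM, axis not starting at 0) of 14 genes against the dose of each antibody (µg/ml) in the 4 arms, with 1 library per point. DDIT4 is above isotype in every antibody library, ATF4 is lower and PDIA6 higher at each higher dose of the combination, and PHGDH separates the single antibodies from isotype and combination.

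The amino acid transporters moved in different directions. SLC7A11, the cystine and glutamate exchanger (chr4:138164097-138242349, minus strand), measured 65.9, 67.8 and 56.9 CPM under isotype at 0.01, 0.1 and 1 µg/ml. It was 54.7, 56.0 and 53.8 CPM under anti-LAG3, 53.3, 55.6 and 55.5 under anti-PD1 and 58.9, 62.8 and 59.2 in the combination. Both single arms lay below all isotype libraries, of which the one at 1 µg/ml was nearest to them. SLC7A11 fell by 0.21 log2 under each single antibody (SE 0.05; adjusted p = 0.0159 for anti-LAG3 and 0.0335 for anti-PD1). With GC and length offsets the values were -0.08 (adjusted p = 0.334) and -0.09 (adjusted p = 0.379). Leaving out 1 library gave -0.17 to -0.27 in each arm, with 7 of 12 fits called for anti-LAG3 and 6 of 12 for anti-PD1, and the highest adjusted p came without the 0.1 µg/ml isotype library (0.143 and 0.251).

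SLC3A2, the heavy chain that SLC7A11 and SLC7A5 share, went up where SLC7A11 went down. It measured 195, 189 and 188 CPM under isotype at 0.01, 0.1 and 1 µg/ml, 206, 206 and 210.3 under anti-LAG3, 226, 217 and 209.6 under anti-PD1, and 180.4, 201 and 202 in the combination. It rose by 0.19 ± 0.05 under anti-PD1 (adjusted p = 0.0255), while the anti-LAG3 difference of 0.12 ± 0.05 was not called (adjusted p = 0.106). With offsets the anti-PD1 value was 0.15 (adjusted p = 0.143). It was not called without the anti-PD1 library at 0.1 µg/ml (0.20, adjusted p = 0.0841) or 0.01 µg/ml (0.15, adjusted p = 0.256), or the 0.1 µg/ml isotype library (0.18, adjusted p = 0.188). SLC7A5 at 683 to 772 CPM, the arginine transporter SLC7A1 at 329 to 359 CPM and the neutral amino acid transporter SLC38A2 at 189 to 215 CPM were called in no comparison.

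Of the sensors, only the PERK gene was called. EIF2AK3 measured 50.5, 51.3 and 43.6 CPM under isotype at 0.01, 0.1 and 1 µg/ml, 45.4, 44.1 and 45.2 under anti-LAG3, 40.4, 42.5 and 41.2 under anti-PD1 and 43.7, 48.0 and 45.8 in the combination. The anti-PD1 libraries were the 3 lowest of the 12, and the isotype library at 1 µg/ml lay nearest to them. EIF2AK3 fell by 0.22 log2 under anti-PD1 (SE 0.06, adjusted p = 0.0356), and with offsets the value was -0.18 (adjusted p = 0.129). The call held in 5 of 12 fits that left out 1 library, and the adjusted p was highest, 0.251 at -0.19, without the 0.1 µg/ml isotype library. ERN1 at 16.3 to 23.0 CPM and ATF6 at 76.9 to 83.4 CPM were called in no comparison. For ERN1 the lowest of the 12 libraries was the combination at 0.01 µg/ml and the highest the combination at 0.1 µg/ml. Its combination slope minus the isotype slope, 0.26 log2 per 10-fold dose, was the largest of the 35 tested genes, without a call.

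XBP1 measured 131, 131 and 139 CPM under isotype at 0.01, 0.1 and 1 µg/ml, 133, 148 and 140.1 under anti-LAG3, 149.5, 137 and 147 under anti-PD1, and 127, 135 and 150.4 in the combination. All arms overlapped. Its counts do not separate the spliced from the unspliced form.

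Of the 8 ER chaperones and folding enzymes, 1 (SDF2L1) was called in an arm mean. For 2 (PDIA6 and SDF2L1) the slope with the dose of the combination was called against the isotype slope. SDF2L1 (chr22:21642261-21644298, plus strand), a co-factor of the HSPA5 and ERdj3 chaperone complex, measured 78.6, 76.0 and 69.9 CPM under isotype at 0.01, 0.1 and 1 µg/ml. It was 88.2, 88.1 and 92.9 CPM under anti-LAG3, 90.9, 92.8 and 85.1 under anti-PD1 and 66.4, 83.4 and 80.2 in the combination. Both single arms lay above every isotype and combination library. SDF2L1 rose by 0.26 ± 0.07 under anti-LAG3 (adjusted p = 0.0206) and by 0.26 ± 0.07 under anti-PD1 (adjusted p = 0.0420). It has the second-highest GC content of the 35 after CEBPB (66.2%), and with offsets the values were 0.15 (adjusted p = 0.332) and 0.17 (adjusted p = 0.375). Leaving out 1 library gave 0.21 to 0.34 under anti-LAG3, with 8 of 12 fits called, and 0.21 to 0.33 under anti-PD1, with 7 of 12 called. The highest adjusted p was 0.118 without the 0.1 µg/ml isotype library and 0.293 without the 0.01 µg/ml anti-PD1 library.

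Dose slopes of the combination against the isotype slope were called for 3 of the 35 tested genes, against 4.63% of all genes (1.83% up, 2.80% down). The slope was higher than under isotype for PDIA6 and SDF2L1 and lower for ATF4. SDF2L1 did not rise from 0.1 to 1 µg/ml of the combination. Isotype levels of PDIA6 and SDF2L1 were lower at 0.1 and 1 than at 0.01 µg/ml, so part of each difference comes from the isotype libraries. PDIA6, a protein disulfide isomerase (chr2:10783391-10837977, minus strand), measured 316, 358 and 387 CPM in the combination at 0.01, 0.1 and 1 µg/ml. It was 354, 338 and 338 CPM under isotype, 361, 362 and 368 under anti-LAG3 and 374, 362 and 370.3 under anti-PD1. The combination thus spanned both ends of the 12 libraries. The slope difference of PDIA6 was 0.18 ± 0.04 log2 per 10-fold dose (adjusted p = 0.0146) and that of SDF2L1 was 0.22 ± 0.06 (adjusted p = 0.0368). All 3 slopes were called with the offsets, at 0.18 (adjusted p = 0.00751) for PDIA6, 0.27 (adjusted p = 0.000835) for SDF2L1 and -0.16 (adjusted p = 0.0180) for ATF4.

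These slopes rest on few libraries, and so do such calls over all genes, 284 higher and 435 lower with all 12 libraries. Over all genes 65 were higher and 36 lower without the 0.01 µg/ml combination library. The numbers were 19 and 15 without the isotype library at 1 µg/ml, and 105 and 197 without that at 0.01 µg/ml. Without the 0.01 µg/ml combination library no member was called, and the slope of SDF2L1 was 0.03 (adjusted p = 1.00) and that of PDIA6 0.14 (adjusted p = 0.731). None was called without the isotype library at 1 µg/ml (SDF2L1 0.19, adjusted p = 0.883; PDIA6 0.21, adjusted p = 0.477) or at 0.01 µg/ml (SDF2L1 0.26, adjusted p = 0.221; PDIA6 0.14, adjusted p = 0.325). The slope of PDIA6 was also not called without the 1 µg/ml combination library (0.21, adjusted p = 0.142). The combination library at 0.01 µg/ml had the highest T minus B marker value of its arm, -1.89 against -2.08 and -2.05 at 0.1 and 1 µg/ml. Of the 23 tested Jurkat markers 4 had a higher and 7 a lower slope in the combination than under isotype, and of the 26 Raji markers 1 had a lower one. Over all genes 1.83% had a higher and 2.80% a lower slope. Jurkat markers thus moved in both directions, so the marker difference does not measure the balance of the lines alone. Once the marker difference was a covariate no slope was called, and PDIA6 was 0.17 (adjusted p = 0.0541), SDF2L1 0.16 (adjusted p = 0.177) and ATF4 -0.15 (adjusted p = 0.111).

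HSPA5 (BiP, chr9:125234853-125241330, minus strand), the master chaperone of the ER, measured 1173, 1146 and 1173 CPM under isotype at 0.01, 0.1 and 1 µg/ml. It was 1119.8, 1154 and 1193 CPM under anti-LAG3, 1194, 1173 and 1195 under anti-PD1, and 1160.4, 1209.8 and 1298 in the combination. The combination at 1 µg/ml was the highest library, and the arm mean differed from isotype by 0.07 ± 0.04 (adjusted p = 0.876). The genes closest to HSPA5 over the 12 libraries were PLEK, ANAPC13, FUT8, GNG4 and SRGN, with Pearson's r of 0.915 to 0.961 and Spearman's rho of 0.797 to 0.874, and with r of 0.728 to 0.787 without the 2 libraries farthest from its median. The other folding genes were called in no comparison, with CALR at 1326 to 1431 CPM, CANX at 941 to 1137, PDIA4 at 361 to 393, HSP90B1 at 345 to 392 and DNAJB9, a co-chaperone that represses IRE1, at 13.3 to 15.9 CPM. The degradation genes HERPUD1 (132 to 144 CPM), EDEM1 (201 to 236 CPM) and SEL1L (116 to 131 CPM) were not called either.

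Many members shared the order seen in PDIA6. In the combination 15 of the 35 tested genes were higher at each higher dose, against 21.5% of all tested genes. They were the ER genes PDIA6, HSPA5, PDIA4, DNAJB9, HERPUD1, EDEM1, SEL1L and XBP1, and also ASNS, MTHFD2, SHMT2, SLC3A2, SLC7A5, DDIT4 and CEBPB. The ER genes CALR, CANX, HSP90B1, SDF2L1, ATF6, ERN1 and EIF2AK3 did not have this order. Only ATF4 and CHAC1 were lower at each higher dose, against 21.7% of all genes. For 11 of the 35 the combination at 0.01 µg/ml was the lowest of the 12 libraries, against 8.06% of all genes. For 11 the combination at 1 µg/ml was the highest, against 11.8%. These orders are descriptions of single libraries, and members share these libraries.

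The remaining slopes and the arms against each other held few calls. The anti-LAG3 slope differed from the isotype slope for none of the 35 tested genes by edgeR and for none by DESeq2, against 0.0708% of all genes, with 2 genes at an unadjusted p under 0.05 (7.99% of all genes). The members with the smallest p were SESN2 (-0.13, adjusted p = 0.605), SLC7A5 (-0.09, adjusted p = 0.616) and SDF2L1 (0.12, adjusted p = 0.629). The anti-PD1 slope likewise gave no call by edgeR or DESeq2, against 0.264% of all genes and with 4 genes at an unadjusted p under 0.05 (11.1% of all genes), led by SEL1L (0.11, adjusted p = 0.382), SLC7A5 (-0.10, adjusted p = 0.386) and SESN2 (-0.14, adjusted p = 0.388). Within the isotype series no slope was called by edgeR or DESeq2, against 0.856% of all genes and with 6 genes at an unadjusted p under 0.05 (13.7% of all genes), led by CANX (0.09, adjusted p = 0.226), SESN2 (0.11, adjusted p = 0.248) and SLC7A11 (-0.11, adjusted p = 0.251).

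Directly against anti-PD1, the combination differed for none of the 35 by edgeR, against 0.354% of all genes, with 10 genes at an unadjusted p under 0.05 (14.0% of all genes). DESeq2 called 2 of the 35 there, and over all 15535 genes it called 46 higher and 101 lower. The smallest p belonged to TRIB3 (-0.24 ± 0.05, adjusted p = 0.0536), PHGDH (-0.16, given above) and SLC3A2 (-0.16 ± 0.05, adjusted p = 0.105). All 3 combination libraries lay below all 3 anti-PD1 libraries for 8 members, among them these 3, SHMT2, SLC7A5 and SDF2L1, against 9.12% of all genes, and above them for 6, against 8.01%. The combination slope differed from the anti-LAG3 slope for none by edgeR or DESeq2, against 0.766% of all genes and with 2 at an unadjusted p under 0.05 (10.5% of all genes). PDIA6 (0.13, adjusted p = 0.194), ATF4 (-0.13, adjusted p = 0.250) and DDIT3 (-0.27, adjusted p = 0.483) led there. From the anti-PD1 slope it differed for none by edgeR or DESeq2, against 0.644% of all genes and with 8 at an unadjusted p under 0.05 (9.98% of all genes), led by PDIA6 (0.15, adjusted p = 0.123), SLC3A2 (0.14, adjusted p = 0.228) and SDF2L1 (0.18, adjusted p = 0.234). Once offsets were used, the slopes of PDIA6 (0.17, adjusted p = 0.0347) and SDF2L1 (0.21, adjusted p = 0.0351) were called against anti-PD1.

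Markers of the 2 lines were read beside these calls. Under anti-LAG3 4 of 23 Jurkat markers rose and none fell, and 1 of 26 Raji markers rose and 4 fell, where 4.88% of all genes rose and 5.16% fell. The mean log2 level of Jurkat markers minus that of Raji markers was higher under anti-LAG3 than under isotype by 0.17 (n = 3 libraries each, exact two-sided permutation p = 0.1, the smallest that 3 against 3 can give; 0.25 after Benjamini-Hochberg adjustment over 5 comparisons). With the median of the markers in place of the mean the difference was -0.01 under anti-LAG3, -0.20 under anti-PD1 (exact two-sided permutation p = 0.1) and -0.13 in the combination (exact p = 0.2), so which arm differed depended on how the markers were summed up. With the marker difference as a covariate, the anti-LAG3 calls were DDIT4 (0.48, adjusted p = 0.0255) and SDF2L1 (0.44, adjusted p = 0.0185). PHGDH (0.21, adjusted p = 0.0731), SLC7A11 (-0.24, adjusted p = 0.148) and SHMT2 (0.20, adjusted p = 0.134) then missed the threshold. Under anti-PD1, where the difference of the marker means was -0.01, all 7 calls stayed under the threshold with that covariate, which was built from the means.

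Genes of the same pathways outside the 36 were read from 6 lists. Of 13 tested genes for eIF2, its kinases, its exchange factor and its phosphatase, 2 fell and none rose under anti-LAG3 (5.16% of all genes fell), and 1 fell under anti-PD1 (1.73% of all genes fell). EIF2AK2 (PKR), the kinase that senses double-stranded RNA and an interferon-induced gene, fell by 0.29 (SE 0.06, adjusted p = 0.00398) under anti-LAG3 and by 0.28 (SE 0.06, adjusted p = 0.0138) under anti-PD1, and the phosphatase subunit PPP1R15B by 0.16 (SE 0.05, adjusted p = 0.0350) under anti-LAG3. Their values with offsets were -0.17 (adjusted p = 0.0673), -0.18 (adjusted p = 0.142) and -0.12 (adjusted p = 0.146). In the dose series 1 gene, EIF2S3, a subunit of eIF2, was called, with a slope of 0.14 under isotype (adjusted p = 0.0320) and of -0.16 in the combination against isotype (adjusted p = 0.0343).

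Of 18 tested further ATF4 target genes, 2 rose and 1 fell under anti-LAG3 (4.88% and 5.16% of all genes) and 2 rose under anti-PD1 (2.09% of all genes). The glutamine transporter SLC1A5 rose by 0.14 ± 0.04 (adjusted p = 0.0322) under anti-LAG3 and by 0.17 ± 0.04 (adjusted p = 0.0264) under anti-PD1. It was lower in the combination than under either single antibody, by -0.16 (adjusted p = 0.0226) and -0.19 (adjusted p = 0.0431). With offsets SLC1A5 was called in none of these 4 comparisons. LONP1, a mitochondrial protease, rose by 0.14 (adjusted p = 0.0379) and SLC38A1 fell by 0.14 (adjusted p = 0.0371) under anti-LAG3, and PYCR1, which makes proline, rose by 0.17 (adjusted p = 0.0461) under anti-PD1. With offsets these were 0.06, -0.04 and 0.08 and were not called. With combination dose, EIF4EBP1, a translation repressor, went from 6.68 to 4.92 to 2.94 CPM, and from 4.89 to 5.33 to 7.38 CPM under isotype (slope difference -0.88 ± 0.15, adjusted p = 0.000571). Without the combination library at 1 or 0.01 µg/ml, or the isotype library at 1 µg/ml, that slope was not called, with values of -0.70 to -1.05 over all such fits. Among the 18 cytosolic aminoacyl-tRNA synthetases, a family that includes known ATF4 targets, none was called in an arm mean. The slope of KARS in the combination minus that of isotype was -0.17 (adjusted p = 0.0308). KARS measured 332, 307 and 306 CPM in the combination and 300.5, 302 and 349 under isotype at 0.01, 0.1 and 1 µg/ml. Part of this difference thus comes from the isotype libraries.

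Of 10 tested further serine, glycine and folate genes, GLDC gave the largest slope of any gene named here. GLDC, the glycine decarboxylase, measured 5.67, 10.4 and 21.9 CPM in the combination at 0.01, 0.1 and 1 µg/ml. It was 6.80, 6.41 and 6.96 CPM under isotype, 6.34, 9.23 and 10.4 under anti-LAG3 and 7.28, 7.34 and 12.6 under anti-PD1. The slope against isotype was 0.97 ± 0.13 log2 per 10-fold dose (adjusted p = 3.68e-05), and it was called in all 12 fits that left out 1 library. GLDC also rose more steeply in the combination than under anti-LAG3 (0.64 ± 0.13, adjusted p = 0.0118) and than under anti-PD1 (0.57 ± 0.13, adjusted p = 0.0376). Neither difference was called without the combination library at 1 or at 0.01 µg/ml, or without the anti-LAG3 library at 1 or 0.01 µg/ml for the first and the anti-PD1 library at 0.01 µg/ml for the second. TYMS, the thymidylate synthase, was lower in the combination than under anti-LAG3 by 0.20 log2 (-0.20 ± 0.04, adjusted p = 0.00854).

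Of 25 further ER folding and secretory genes, 4 had a higher slope in the combination than under isotype and none a lower one. Of all genes 1.83% had a higher one. They were SEC61G, a subunit of the translocon (0.36 ± 0.06, adjusted p = 0.000208), PPIB, an ER prolyl isomerase (0.21 ± 0.05, adjusted p = 0.00806), DNAJC3, which inhibits PERK (0.19 ± 0.05, adjusted p = 0.0334), and MYDGF, a secreted growth factor (0.18 ± 0.05, adjusted p = 0.0428). Of 19 further degradation genes 3 had a higher slope than under isotype and none a lower one. These were SELENOK (0.41 ± 0.06, adjusted p = 0.000208), EDEM3 (0.22 ± 0.06, adjusted p = 0.0312) and the segregase VCP (0.15 ± 0.04, adjusted p = 0.0336). SEC61G measured 54.5, 60.6 and 69.3 CPM in the combination and 66.4, 63.0 and 50.9 under isotype at 0.01, 0.1 and 1 µg/ml. The isotype slope of SEC61G was itself called (-0.19 ± 0.04, adjusted p = 0.0197), so the 2 series moved in opposite directions. PPIB, DNAJC3, MYDGF, SELENOK, EDEM3 and VCP were also lower at each higher isotype dose, so part of each difference comes from the isotype libraries. From 0.01 to 1 µg/ml EDEM3 went from 50.3 to 56.0 CPM in the combination and from 62.1 to 51.0 under isotype. All 7 slopes were called with GC and length offsets. None was called without the 1 µg/ml isotype library, where only 19 of 15881 genes had a higher and 15 a lower slope called.

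In arm means 3 of those 25 folding genes rose under anti-LAG3 (4.88% of all genes) and 1 under anti-PD1 (2.09% of all genes). MYDGF rose by 0.35 ± 0.06 under anti-LAG3 (adjusted p = 0.000878) and by 0.29 ± 0.06 under anti-PD1 (adjusted p = 0.00976). The translocon subunit SEC61B (0.22 ± 0.05, adjusted p = 0.00569) and the disulfide isomerase TXNDC5 (0.23 ± 0.06, adjusted p = 0.0215) rose under anti-LAG3. With offsets MYDGF (0.27, adjusted p = 0.0112) and SEC61B (0.20, adjusted p = 0.0168) were called under anti-LAG3. In the combination MYDGF (-0.29, adjusted p = 0.00636), TXNDC5 (-0.25, adjusted p = 0.0201) and CRELD2 (-0.20, adjusted p = 0.0297) were lower than under anti-LAG3. Of the degradation genes the ubiquitin ligase RNF5 rose (0.27 ± 0.05, adjusted p = 0.00125) and the ligase SYVN1 (HRD1), a partner of SEL1L, fell (-0.29 ± 0.05, adjusted p = 0.00186) under anti-LAG3. Both were called in the same direction under anti-PD1 (0.17, adjusted p = 0.0421, and -0.19, adjusted p = 0.0475), and in the opposite direction in the combination against anti-LAG3 (-0.18, adjusted p = 0.0244, and 0.23, adjusted p = 0.0129). With offsets both were called under anti-LAG3, at 0.22 (adjusted p = 0.00745) and -0.32 (adjusted p = 0.00120).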

How the data were processed

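RNA-seq counts of 12 co-culture libraries were used. The authors deposited raw read counts per gene symbol, with gene lengths, and tables of log2 fold changes with standard errors, p-values and adjusted p-values for each antibody library against the 3 isotype libraries. The build was GRCh38, and the tools named were STAR 2.5.2b, Trimmomatic 0.36, DESeq2 and, of Subread 1.5.2, featureCounts, per the submitters' processing notes. Not given in the sources used here are the annotation release and the strand and multimapping settings, so genes with near-identical copies are uncertain. Labels give the molecule as polyA RNA and the extraction as total RNA. Not used were 4 count columns that match no sample and 36 per-sample columns of the comparison tables.

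Libraries of 23593973 to 36581754 counts were grouped by the treatment label. Depth allows a level of 0.0820 to 0.127 CPM at a count of 0 (3 counts, counting error only). Genes kept by filterByExpr (arm as group, minimum count 10) were tested with edgeR 4.0.16 (R 4.3.3, limma 3.58.1), TMM scaling and the robust quasi-likelihood test with Benjamini-Hochberg adjustment, as arm plus dose (6 residual degrees of freedom) and, separately, as 1 slope per arm on log10 dose centred at 0.1 µg/ml (4 residual degrees of freedom). Log2 CPM used a prior count of 2, and RPKM used the deposited lengths. The code was tested on simulated data. Alternatives were no filter, RLE size factors, DESeq2 1.42.0, no dose term, GC and length offsets (88.1% of tested genes and 35 of 35 members had a GC value), a covariate holding the Jurkat minus Raji marker level, and each library left out.

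The members and lists were chosen with earlier results of these data known. ATF4, DDIT3, ASNS, HSPA5, XBP1 and every member called in any of the 11 comparisons were given in all libraries. Where none was called, the 3 smallest p were named, and from each other list up to 4 called genes per comparison.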

Additional observations from a re-analysis of the deposited data

Results flagged for a closer look

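PHGDH differed between arms in a direct test. Its arm mean was lower in the combination than under anti-LAG3, with a log2 difference of -0.18 (quasi-likelihood F-test of edgeR, Benjamini-Hochberg adjusted p = 0.0129), and all 3 combination libraries lay below all 3 anti-LAG3 libraries. With the line marker difference as a covariate the value was -0.22 (adjusted p = 0.123).

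PPP1R15A lay on opposite sides of isotype in 2 arms when each library was set against the isotype library of its dose. It was lower at all 3 doses of anti-LAG3, by -0.03 to -0.07 log2, and higher at all 3 doses of the combination, by 0.08 to 0.15, so the mean changes differ by -0.17. That difference between matched doses was not tested. The comparison of the combination with anti-LAG3 in arm mean gave 0.17 ± 0.06 and was not called by edgeR (adjusted p = 0.0928). Both arms are set against the same isotype libraries, and libraries of 1 dose share only a label. Against the mean of the 3 isotype libraries, the anti-LAG3 values were 0.002, -0.105 and -0.060 log2 at 1, 0.1 and 0.01 µg/ml. The anti-LAG3 and isotype libraries overlapped for PPP1R15A. How many of all genes have such opposite signs was not computed.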

How the results depend on the processing

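The limits are 1 library per condition, 2 lines read together, and small changes that move with GC content. The numbers of members called were 5 under anti-LAG3, 7 under anti-PD1, 0 in the combination against isotype, 1 and 0 in the combination against anti-LAG3 and anti-PD1, and 3 for the combination slope. With GC and length offsets they were 2, 0, 0, 2, 0 and 3, and 2 for the combination slope against the anti-PD1 slope. With the marker covariate they were 2 under anti-LAG3, 1 in the combination against isotype, 0 against anti-LAG3, 0 for the combination slope and 1 for the isotype slope. Without the filter they were 1 in the combination against isotype, 2 against anti-LAG3 and 3 against anti-PD1, and with DESeq2 they were 1, 2 and 2. Over all genes, those comparisons gave 118 up and 27 down, 515 and 777, and 165 and 184 of 36341 without the filter. With DESeq2 they gave 17 up and 1 down, 387 and 434, and 46 and 101 of 15535. Without a replicate block, meaning without the dose term that pairs libraries of the same dose label, the numbers called in arm means were 5, 7, 0, 1 and 0, and this changed no number; libraries of 1 dose share only a label.

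Leaving out 1 library gave 0 to 6 calls under anti-LAG3 (0 without the isotype library at 0.1 µg/ml), 0 to 10 under anti-PD1 (0 without the anti-PD1 library at 0.1 or 0.01 µg/ml or the isotype library at 0.1 µg/ml), 0 to 1 in the combination against isotype, 0 to 4 against anti-LAG3, 0 to 3 against anti-PD1 and 0 to 3 for the combination slope. The calls over all genes moved as well. Under anti-LAG3 they went from 758 up and 802 down to 207 and 217 without the isotype library at 0.1 µg/ml. Under anti-PD1 they were 325 up and 269 down with all 12 libraries. Without the anti-PD1 library at 0.01 µg/ml, or the isotype library at 0.1 µg/ml, they were 0 and 0. Without the anti-PD1 library at 0.1 µg/ml they were 79 and 122. For the other pathway genes, 39 called results had 698 alternative values, of which 475 kept the call and 223 lost it. The 37 results of single members include ones not called in the main edgeR fit, for which staying uncalled counted as kept. Only the called ones could lose a call. Of 655 alternative values of single members, 545 kept direction and side of the threshold, 91 lost and 15 gained a call, and 4 reversed. SDF2L1 in the combination slope against the anti-PD1 slope was -0.031 with the marker covariate and ran from -0.0080 (without the combination library at 0.01 µg/ml) to 0.376 (without that at 1 µg/ml). In the isotype slope CANX ran from -0.0013 to 0.178 and SLC7A11 from -0.253 to 0.040, with the reversals without the isotype library at 1 µg/ml. None of these 3 was called in the main edgeR fit, while the SDF2L1 slope was called with GC and length offsets, as given above. The T minus B marker difference changed sign with the median of the markers for anti-LAG3 (-0.0145) and the combination (-0.129) against isotype, and with markers of at least 10 CPM for anti-PD1 against isotype (0.0544) and the combination against anti-PD1 (-0.0394). The cause was not tested.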
